A study of Mus musculus with 23 samples.

Results

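Replication-dependent histone cluster genes supply the bulk of the histone protein that packages newly copied DNA. In the mouse they sit in the Hist1, Hist2 and Hist3 clusters and at the Hist4 locus. They encode the linker histone H1 and the core histones H2A, H2B, H3 and H4. Their mRNAs normally carry no introns and no poly(A) tail. They end just after a short stem-loop, which the stem-loop binding protein Slbp holds for processing, translation and decay, and which is cut with the help of the U7 small nuclear RNA. A part of the transcripts of these genes ends further downstream with a poly(A) tail, chiefly in differentiated cells. The libraries were made from poly(A)-selected RNA, so the values below measure what that selection and the library steps kept of these transcripts.

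The genes were chosen by name alone: every row of both expression tables whose symbol began with Hist1h to Hist4h, leaving out the pseudogene symbol Hist3h2bb-ps. This gave 61 of 39017 genes, with 6 H1, 20 H2A, 15 H2B, 7 H3 and 13 H4 genes. Chromosome 13 held 49 of them, chromosome 3 held 9, chromosome 11 held 2 and chromosome 6 held 1. The annotation gave 56 of the 61 a single exon and called Hist1h2aj and Hist1h2al pseudogenes. The Hist1 cluster holds further annotated genes, such as Hist1h2bh and Hist1h3d, that had no row and were not analysed here.

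RNA came from the hippocampi of mice and was read as 75-base single ends. Chronic social defeat stress (CSDS) is a model of social stress: on each of 10 days a mouse spent 5 min with an unfamiliar aggressive CD-1 mouse and stayed behind a perforated divider until the next day. The 4 groups had 5 libraries each: WT mice after CSDS, WT control mice, mice labelled Neurensin2 (Nrsn2) knockout after CSDS, and control mice labelled knockout. No strain, age or sex, and no construction of the knockout allele, was given for any group. The p-values measure the spread between these libraries, because the labels give each a number and nothing more on the animal behind it.

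Depth, estimated from the value of a single read, ran between 25.6 and 55.6 M reads over the 23 libraries. All genes looked at for the tissue, such as Prox1 and Camk2a, were present in every library of the 4 groups. Some of them, such as Gfap, Mbp and Gad1, are genes of brain cells at large and not of hippocampus alone. The gene named in the knockout label, Nrsn2, was not lower under that label: it averaged 34.1 ± 2.34 RPKM in CSDS libraries labelled knockout and 31.2 ± 1.93 in control libraries labelled knockout, and 29.7 ± 2.55 in WT CSDS and 29.1 ± 2.42 in WT control libraries (SD, n = 5 each). The groups are therefore called by their label. Another 3 libraries, WT 9B and the knockout-labelled 11 and 10B, were titled control but had CSDS as their treatment. The series' design text counts 5 control animals and 6 to 7 after CSDS. They entered no group, and the results with them counted either way are given beside the results. The library numbered 10 in both control groups stood apart in sex-linked genes. Xist was at 48.2 to 56.5 RPKM in these 2, against at most 0.0618 RPKM in the other 18 libraries of the 4 groups. Ddx3y was at 0.163 to 0.499 RPKM in the 2 and at 9.66 to 12.97 RPKM in the 18. The 3 libraries in conflict had Xist of up to 1.60 RPKM and Ddx3y of 8.75 to 9.99 RPKM. Both libraries that stood apart are controls, so this trait is uneven between control and CSDS, and counts are also given without both.

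Most of the histone cluster genes, but not all, had the stem-loop in an annotated transcript. The motif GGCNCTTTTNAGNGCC, searched on the strand of the transcript, was found in an annotated transcript of 38 of the 61 genes. Over the whole annotation 47 of 55450 genes (0.0848%) had a match, 38 of which are genes described here. The 9 H4 genes with a match carried the stem GGCCC, 7 of them with the loop sequence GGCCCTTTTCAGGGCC and Hist1h4i and Hist2h4 with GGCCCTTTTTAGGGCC. All 29 matches in the other classes carried the stem GGCTC. The sequences below are those of the genes whose values are given in full, from GENCODE M21 transcripts (GRCm38), 5′ to 3′, with the stem-loop in capitals and up to 5 bases on each side.
Hist1h4c: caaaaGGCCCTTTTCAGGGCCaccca
Hist1h4h: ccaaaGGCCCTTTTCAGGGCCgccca
Hist1h4i: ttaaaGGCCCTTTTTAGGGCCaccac
Hist1h4m: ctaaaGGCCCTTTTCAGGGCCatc
Hist2h4: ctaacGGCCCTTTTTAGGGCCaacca
Hist2h3c1: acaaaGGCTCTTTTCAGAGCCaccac
Hist3h2a: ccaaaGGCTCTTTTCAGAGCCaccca
Hist3h2ba: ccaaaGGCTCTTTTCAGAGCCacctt
Hist1h2be: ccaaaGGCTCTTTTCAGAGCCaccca
Hist1h1c: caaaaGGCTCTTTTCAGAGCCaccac
Hist1h4k has no entry in this list, as its annotated transcript is 312 bases long and holds no match. In all, 23 of the 61 genes had none.

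The level of these genes varied widely within each class. RPKM, the reads of a gene per kilobase and per library depth, is a level per annotated length. That length ran from 312 bases in Hist1h4k to 7425 in Hist1h1d, so levels of different genes compare only roughly. The H2B gene Hist1h2bc had the highest mean over the 20 libraries, 37.7 RPKM. Among H2A genes the highest were Hist2h2aa1 at 18.4, Hist2h2aa2 at 18.1 and Hist3h2a at 17.3 RPKM. The H2B genes next to Hist1h2bc were Hist3h2ba at 15.7 and Hist1h2bg at 15.3 RPKM. The linker histone gene Hist1h1c stood at 10.5 RPKM and was followed in its class by Hist1h1e, whose group means lay between 1.57 and 2.35 RPKM, and Hist1h1d, whose group means lay between 0.207 and 0.339 RPKM. The H4 genes were lower: Hist1h4k, the highest, had group means of 3.25 to 5.85 RPKM.

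A gene was tested where its mean over the libraries compared was at least 0.5 RPKM, and a gene was called where limma, fitted to log2(RPKM + 0.5) of all genes in the table, gave a two-sided Benjamini-Hochberg adjusted p under 0.05. In both CSDS comparisons 38 of the 61 genes were tested: 2 H1, 6 H2A, all 15 H2B, 3 H3 and 12 H4 genes. Many of them share sequence, so they are not 38 separate measurements. The other 23 had means of 0.0109 to 0.467 RPKM. Hist1h2ac at 0.467 RPKM lay just under the threshold and Hist1h4d at 0.710 RPKM just above it. The untested genes included all 4 H3 genes of the Hist1 cluster, 14 H2A genes, 4 H1 genes and Hist4h4, the H4 gene at a locus of its own on chromosome 6, which averaged 0.0462 RPKM.

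In WT hippocampi, histone cluster genes were lower after CSDS than in controls, and the H4 genes most of all. The test called 27 of the 38 lower and none higher, where 12.5% of all 18274 genes tested were called lower and 9.88% higher. At an unadjusted p under 0.05 limma had 29 of the 38 lower and 0 higher, against 19.5% lower and 16.7% higher of all genes. In 13 of the 38 every CSDS library lay below every control library, a pattern found in 9.65% of all genes. The median log2 fold change was -0.37 over the 38 and -0.002 over all genes. It was -0.69 over the 12 H4 genes, -0.57 over the 3 H3 genes, -0.36 over the 15 H2B genes, -0.16 over the 6 H2A genes and 0.13 over the 2 H1 genes. Those called lower were 11 of 12 H4, 3 of 3 H3, 12 of 15 H2B, 1 of 6 H2A and 0 of 2 H1 genes.

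In the libraries labelled knockout the direction was the same and H3 genes fell furthest. The test called 21 of 38 lower and none higher, where 8.88% of all 18259 genes were called lower and 6.17% higher. At an unadjusted p under 0.05 it had 34 lower, both H1 genes among them, and 1 higher, Hist3h2ba, against 17% lower and 13.3% higher of all genes. In 14 of the 38 every CSDS library lay below every control library, against 7.46% of all genes. The median log2 fold change was -0.43 over the 38 and -0.007 over all genes. It was -0.45 over the H4 genes, -0.87 over the H3 genes, -0.40 over the H2B genes, -0.41 over the H2A genes and -0.43 over the H1 genes. Those called lower were 10 of 12 H4, 3 of 3 H3, 6 of 15 H2B, 2 of 6 H2A and 0 of 2 H1 genes.

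Of these calls 18 were made in both genotypes, where 5.12% of the 18089 genes tested in both were called lower in both. They are 66.7% of the WT calls and 85.7% of the calls in libraries labelled knockout: 9 H4, 3 H3, 5 H2B and 1 H2A gene. The fit for WT called a further 9 and the fit for the knockout label a further 3, Hist1h2al, Hist2h2be and Hist2h4. In 10 genes the CSDS libraries lay below the control libraries of their genotype without overlap in both genotypes, as did 3.57% of the genes tested in both. Of the 10, 7 were H4 genes of the Hist1 cluster.

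**Figure D1:**
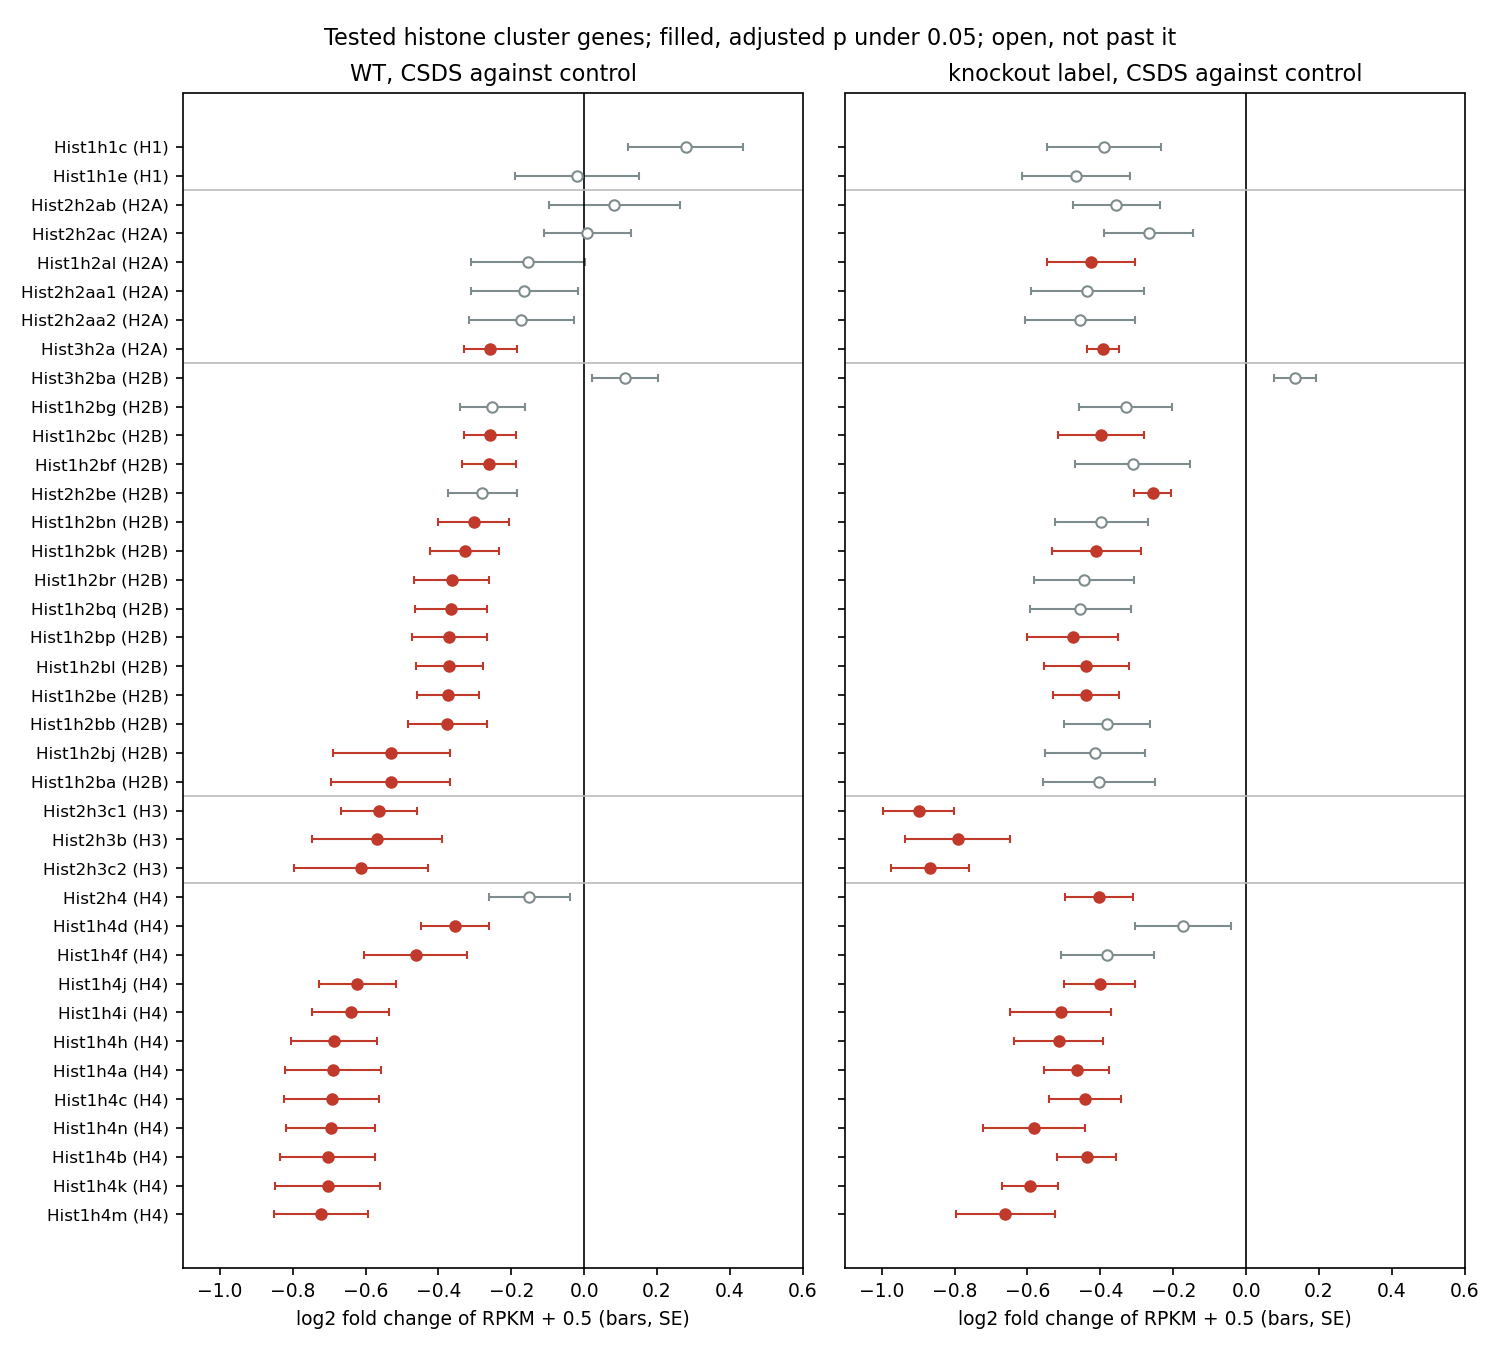
Each row is 1 of the 38 tested histone cluster genes, grouped by class, and the x axis is the log2 fold change of RPKM + 0.5, CSDS over control, with its SE, in WT libraries on the left and libraries labelled knockout on the right. Filled points passed the adjusted p and open points did not. All filled points lie below 0, Hist3h2ba lies above 0 in both panels, and the 3 H3 genes reach -0.90 in the libraries labelled knockout.

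The label conflict bears on both counts. With the conflicting libraries counted as CSDS, as the treatment field has them, 14 genes were called lower in WT, 9 of them H4 genes, and 0 in the libraries labelled knockout. Calls over all genes, in either direction, fell as well, to 1240 in WT and 143 with the knockout label, against 4093 and 2747 without these libraries. Counted as control, as the titles have them, 23 were called lower in each genotype, with 4729 calls over all genes in WT and 3235 with the knockout label. Without the libraries numbered 10 of both control groups, 16 were called lower in WT and 18 in the libraries labelled knockout. Calls over all genes were then 4016 in WT and 3668 with the knockout label. Leaving out 1 library at a time gave 13 to 25 in WT, with 13 without control 7, 14 without control 8, CSDS 1 or CSDS 5, and 16 without control 10. The range under the knockout label was 13 to 27, with 13 without CSDS 4. Over all genes such fits called 3077 to 4016 in WT and 1658 to 3668 with the knockout label, in either direction.

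H4 is the core histone that pairs with H3, and its genes differ in DNA sequence but are known to encode the same protein. Their summed level over the 13 genes was 12.9, 19.1, 17.9, 19.96 and 20.2 RPKM in WT CSDS libraries 1 to 5, against 31.8, 35.3, 27.1, 27.2 and 33.5 RPKM in WT control libraries 6 to 10. In the libraries labelled knockout it was 18.2, 18.7, 22.5, 19.7 and 23.1 RPKM after CSDS, against 29.0, 31.0, 28.2, 27.8 and 40.0 RPKM in controls. In neither genotype did the groups overlap, WT CSDS 1 was the lowest of all 20 libraries, and control 10 labelled knockout the highest. The mean was 18.0 ± 2.99 RPKM in WT CSDS and 31.0 ± 3.69 RPKM in WT control libraries, a ratio of 0.581, and 20.4 ± 2.25 RPKM in CSDS and 31.2 ± 5.08 RPKM in control libraries labelled knockout, a ratio of 0.655 (SD, n = 5 each). In bulk tissue, fewer cells that express a gene and less RNA of it per cell cannot be told apart. Of the libraries in conflict, WT 9B stood at 22.1 RPKM, between the WT ranges. The knockout-labelled 11 at 31.1 RPKM and 10B at 34.1 RPKM stood within the range of the controls with that label.

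**Figure D2:**
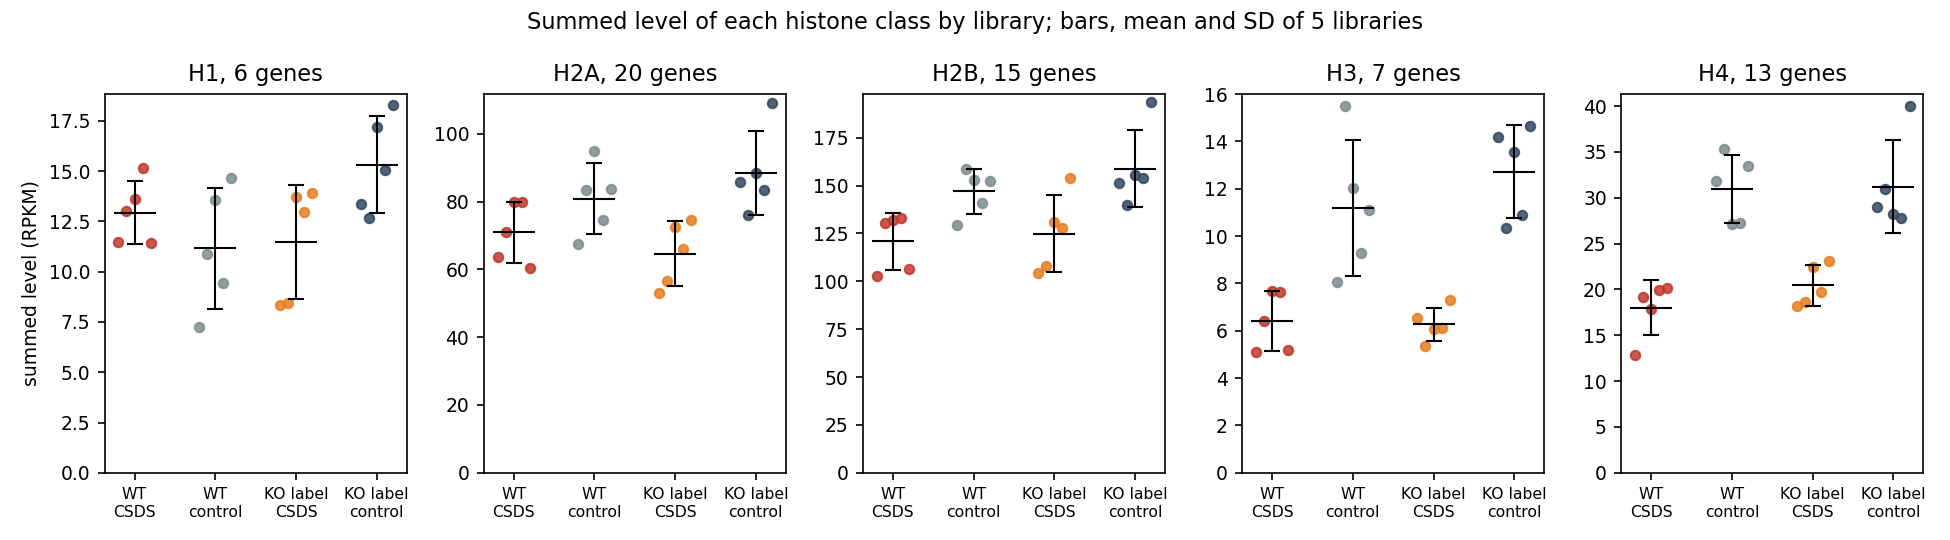
Each panel is a histone class, the y axis is the summed RPKM of its genes, points are libraries, and bars give the mean and SD of 5 libraries in WT CSDS, WT control, CSDS labelled knockout and control labelled knockout. The H4 sums of 12.9 to 20.2 RPKM in WT CSDS lie below the 27.1 to 35.3 RPKM of WT controls, while the H2B sums of the groups overlap.

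The H4 gene of highest level was Hist1h4k (chromosome 13, 21750194 to 21750505, minus strand, 1 exon). It had 2.04, 3.73, 3.53, 3.64 and 3.28 RPKM in WT CSDS libraries, against 5.86, 6.54, 4.62, 4.76 and 5.94 RPKM in WT controls. In libraries labelled knockout it had 3.39, 3.30, 4.15, 3.75 and 3.94 RPKM after CSDS, against 5.39, 5.88, 5.47, 5.53 and 6.99 RPKM in controls. Every CSDS library lay below every control library of its genotype, with WT CSDS 1 the lowest. The log2 fold change was -0.70 (SE 0.144, adjusted p = 0.0074) in WT and -0.59 (SE 0.0777, adjusted p = 0.00159) in the libraries labelled knockout. With the conflicting libraries counted as CSDS it was -0.64 (adjusted p = 0.0346) in WT and -0.41 (adjusted p = 0.136) in the libraries labelled knockout.

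Hist1h4i (chromosome 13, 22040636 to 22041362, minus strand) has its own 3′ sequence in the annotation: of its 75-base windows, 77.6% occurred in no other gene. It had 1.93, 2.59, 2.16, 2.96 and 2.14 RPKM in WT CSDS libraries, against 3.87, 4.26, 3.56, 3.38 and 4.62 RPKM in WT controls, with no overlap. Under the knockout label it had 2.47, 2.27, 2.92, 2.64 and 3.29 RPKM after CSDS, against 3.79, 4.00, 3.92, 3.07 and 5.88 RPKM in controls, where the lowest control fell among the CSDS values. Its fitted log2 fold change was -0.64 (SE 0.106, adjusted p = 0.00269) in WT and -0.51 (SE 0.138, adjusted p = 0.0333) in the libraries labelled knockout. The second call was lost without any 1 of CSDS 1, 2 or 4 or control 6, 7 or 8, with an adjusted p of up to 0.0765.

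Hist1h4c (chromosome 13, 23697635 to 23698454, minus strand) shared fewer windows still, with 83.1% found in no other gene. It had 1.07, 1.70, 1.59, 2.01 and 2.08 RPKM in WT CSDS libraries, against 3.42, 3.38, 2.78, 2.54 and 2.91 RPKM in WT controls. Its levels with the knockout label were 1.68, 1.86, 2.05, 1.94 and 2.21 RPKM after CSDS, against 2.65, 3.06, 2.72, 2.25 and 3.54 RPKM in controls. The groups did not overlap in either genotype, though only a small gap parted the highest CSDS and the lowest control library with the knockout label. On the log2 scale the change was -0.69 (SE 0.131, adjusted p = 0.0050) in WT and -0.44 (SE 0.0976, adjusted p = 0.0147) in the libraries labelled knockout.

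All 8 other H4 genes of the Hist1 cluster were called lower in WT and 6 of them with the knockout label. Hist1h4m averaged 0.972 ± 0.155 RPKM in WT CSDS and 1.95 ± 0.445 RPKM in WT control libraries (SD, n = 5 each, as for every mean that follows), the furthest fall of the class at -0.72 (adjusted p = 0.00389), and 1.05 ± 0.206 RPKM in CSDS and 1.98 ± 0.516 RPKM in control libraries labelled knockout, at -0.66 (adjusted p = 0.0112). Hist1h4a, Hist1h4b, Hist1h4h and Hist1h4n fell by 0.69 to 0.70 on the log2 scale in WT and by 0.44 to 0.58 with the knockout label, without overlap in either genotype. Hist1h4j fell by 0.62 in WT, where its groups did not overlap, and by 0.40 with the knockout label, where they did. Hist1h4d averaged 0.550 ± 0.119 RPKM in WT CSDS and 0.840 ± 0.126 RPKM in WT control libraries (-0.35, adjusted p = 0.0231) and 0.649 ± 0.168 RPKM in CSDS and 0.799 ± 0.224 RPKM in control libraries labelled knockout (-0.17, adjusted p = 0.414). Hist1h4f was called in WT (-0.46, adjusted p = 0.0399) and not with the knockout label (-0.38, adjusted p = 0.0691).

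Leaving out each library in turn kept 9 of the 11 H4 calls in WT whichever library was left out. Hist1h4d was lost without WT control 8, CSDS 1 or CSDS 4 (adjusted p up to 0.0545). Hist1h4f was lost in 7 of the 10 fits (adjusted p up to 0.0896): without control 6, 7 or 10 or CSDS 1, 2, 3 or 4. Under the knockout label, 7 of the 10 H4 calls were kept. Hist1h4h was lost without CSDS 4 (adjusted p = 0.0514) and Hist1h4j without CSDS 1 or CSDS 4 (adjusted p up to 0.0546).

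Hist2h4, the H4 gene of the Hist2 cluster (chromosome 3, 96261682 to 96263311, minus strand), shared no 75-base window with any other gene. It had 1.06, 0.906, 0.769, 0.978 and 1.29 RPKM in WT CSDS libraries, against 0.814, 1.32, 1.23, 1.32 and 1.14 RPKM in WT controls, and the groups overlapped widely. Libraries labelled knockout had 0.872, 0.796, 0.991, 0.700 and 1.01 RPKM after CSDS, against 1.37, 1.46, 0.989, 1.47 and 1.32 RPKM in controls, where 1 control lay at the level of the highest CSDS libraries. The log2 fold change was -0.15 (SE 0.112, adjusted p = 0.362) in WT and -0.40 (SE 0.0938, adjusted p = 0.018) with the knockout label. The test of the difference between genotypes called none of these genes, as given further on.

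**Figure D3:**
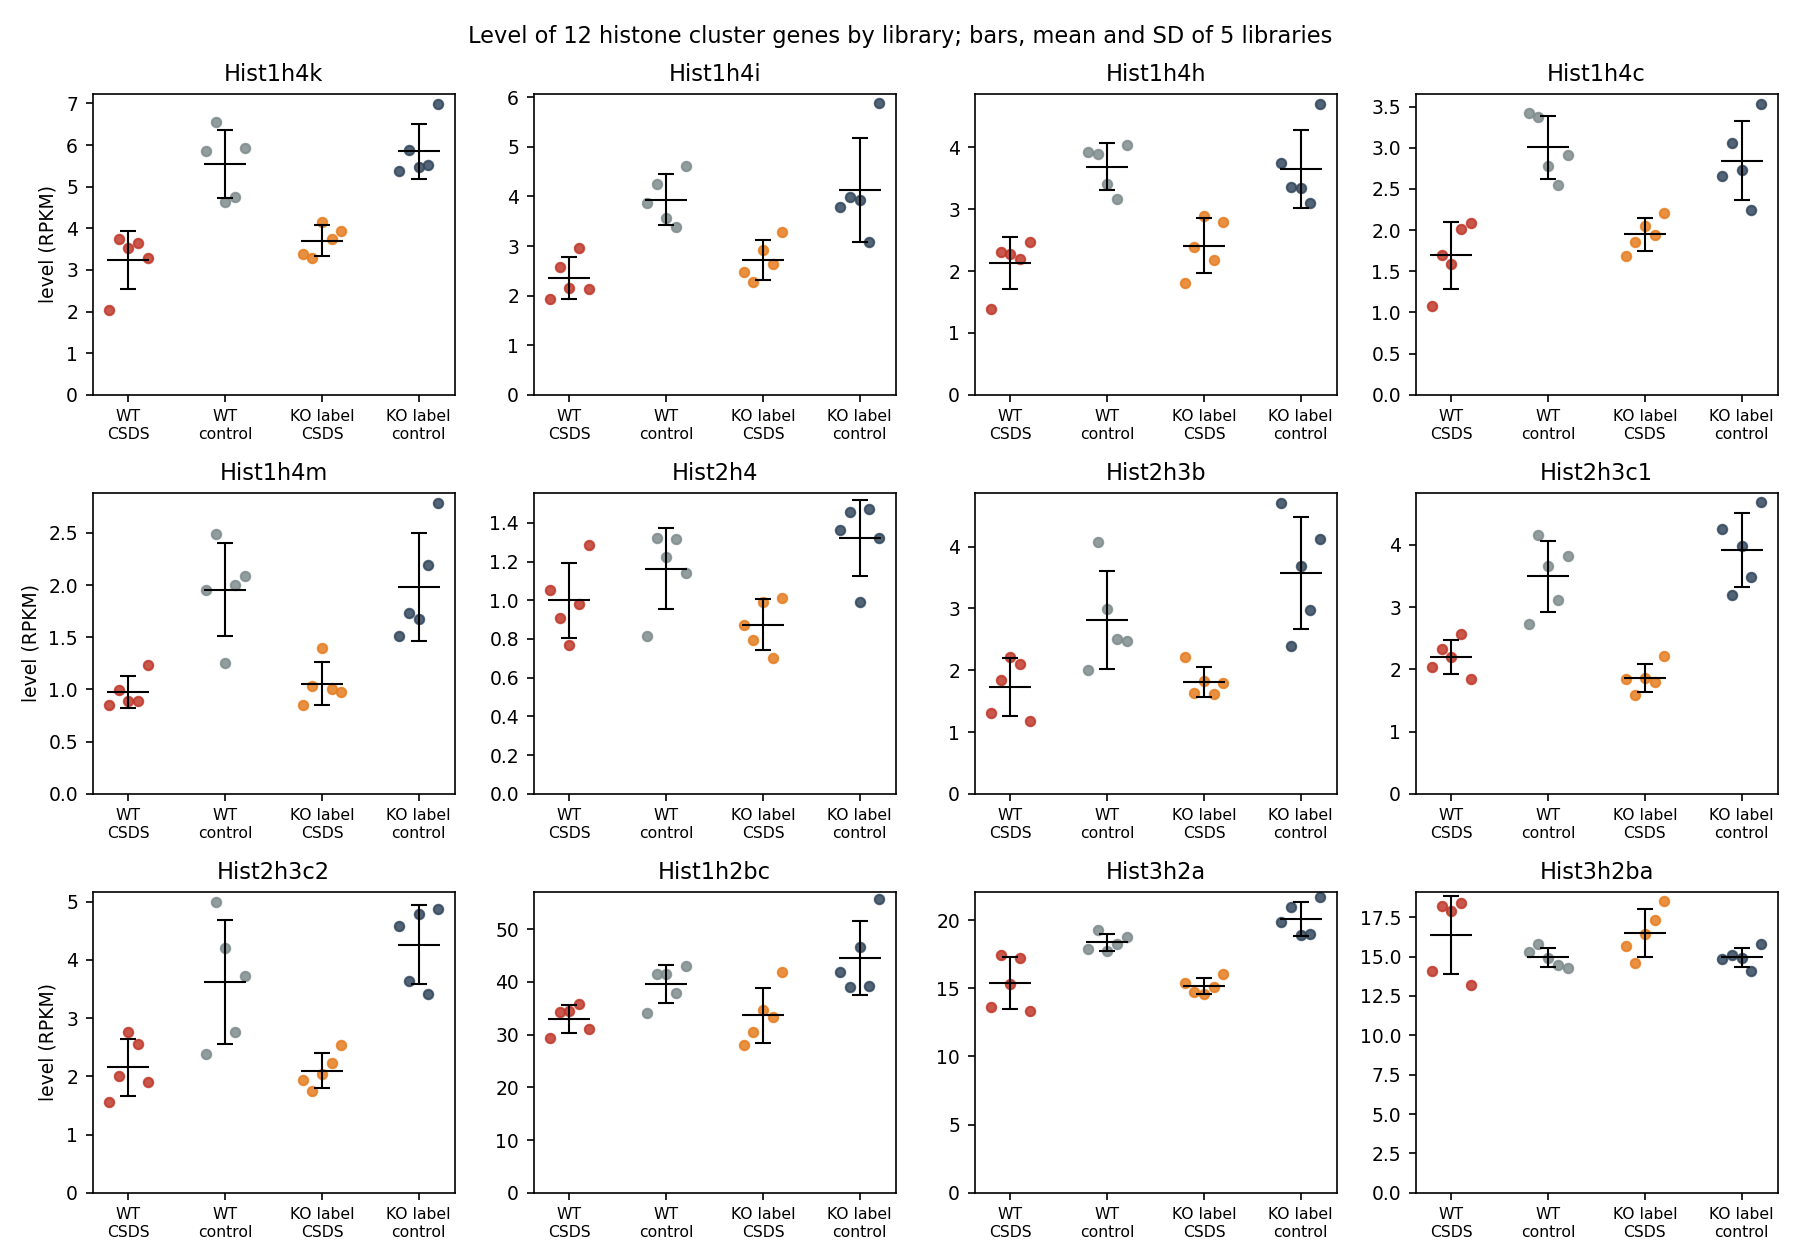
Each panel is 1 gene, the y axis is its level in RPKM, points are libraries, and bars give the mean and SD of 5 libraries for WT CSDS, WT control, CSDS labelled knockout and control labelled knockout. Hist1h4k shows no overlap between CSDS and control in either genotype, Hist2h3c1 falls to 1.59 to 2.22 RPKM in CSDS libraries labelled knockout against 3.19 to 4.69 RPKM in controls with that label, and Hist3h2ba is not lower after CSDS.

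The 3 tested H3 genes all belong to the Hist2 cluster on chromosome 3. Hist2h3c1 (96246685 to 96248509, plus strand) had 2.03, 2.32, 2.20, 2.56 and 1.84 RPKM in WT CSDS libraries, against 2.72, 4.16, 3.66, 3.11 and 3.81 RPKM in WT controls. In libraries labelled knockout it had 1.85, 1.59, 1.86, 1.80 and 2.22 RPKM after CSDS, against 4.26, 3.19, 3.99, 3.48 and 4.69 RPKM in controls. The groups were apart in both genotypes, by a wider gap with the knockout label. Its fitted log2 fold change was -0.56 (SE 0.105, adjusted p = 0.00476) in WT and -0.90 (SE 0.0974, adjusted p = 0.000804) with the knockout label, and both calls were kept without any 1 library. With the conflicting libraries counted as CSDS these were -0.51 (adjusted p = 0.0335) and -0.70 (adjusted p = 0.0699).

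Hist2h3c2 averaged 2.16 ± 0.490 RPKM in WT CSDS and 3.62 ± 1.06 RPKM in WT control libraries (-0.61, adjusted p = 0.0365) and 2.10 ± 0.299 RPKM in CSDS and 4.26 ± 0.680 RPKM in control libraries labelled knockout (-0.87, adjusted p = 0.00128). Hist2h3b averaged 1.73 ± 0.468 RPKM in WT CSDS and 2.81 ± 0.789 RPKM in WT control libraries (-0.57, adjusted p = 0.0444) and 1.82 ± 0.242 RPKM in CSDS and 3.58 ± 0.910 RPKM in control libraries labelled knockout (-0.79, adjusted p = 0.00662). The WT call was lost for Hist2h3c2 in 6 of the 10 fits that left out 1 library (adjusted p up to 0.0819), without control 7, 8 or 10 or CSDS 1, 2 or 5. For Hist2h3b it was lost in those 6 and without control 9 (adjusted p up to 0.0985). All 3 calls with the knockout label were kept. None of the windows of Hist2h3c1 and Hist2h3b and 37.4% of those of Hist2h3c2 were found in no other gene, and Hist2h3c1 and Hist2h3b share exon positions with annotated transcripts of other symbols, Gm20634 and Gm20628. The 3 are therefore not 3 separate measurements, and reads could have been split between them. How reads with several matches were counted is not given in the sources used here.

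The 4 H3 genes of the Hist1 cluster, Hist1h3a, Hist1h3b, Hist1h3c and Hist1h3e, lay under the mean of 0.5 RPKM at which a gene was tested. Their summed level was 0.209, 0.239, 0.515, 0.417 and 0.243 RPKM in WT CSDS libraries, against 0.935, 2.27, 1.17, 0.881 and 1.10 RPKM in WT controls. Under the knockout label it was 0.538, 0.373, 0.358, 0.457 and 0.744 RPKM after CSDS, against 0.650, 1.11, 1.09, 1.02 and 0.994 RPKM in controls. The WT groups were apart, and with the knockout label 1 control lay below the highest CSDS library. Each of these genes rested on a median of 4 to 6 estimated reads a library.

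H2A and H2B form the dimers on either side of the nucleosome core. All 15 H2B genes were tested. The highest, Hist1h2bc (chromosome 13, 23684199 to 23692908, plus strand, 2 exons), had 29.4, 34.3, 34.5, 35.8 and 31.1 RPKM in WT CSDS libraries, against 34.1, 41.5, 41.5, 37.9 and 43.0 RPKM in WT controls. Under the knockout label it had 28.0, 30.5, 34.7, 33.3 and 41.8 RPKM after CSDS, against 41.9, 39.0, 46.7, 39.2 and 55.8 RPKM in controls. The groups overlapped in both genotypes. On the log2 scale the change was -0.26 (SE 0.0706, adjusted p = 0.0259) in WT and -0.40 (SE 0.119, adjusted p = 0.0465) with the knockout label. The WT call was lost without control 7, 8 or 10 or CSDS 1 or 5 (adjusted p up to 0.0597). With the knockout label it was lost without any 1 of control 6, 8, 9 or 10 or CSDS 1, 2, 3 or 4 (adjusted p up to 0.102).

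Hist1h2be (chromosome 13, 23583670 to 23621124, minus strand) was the H2B gene most apart in both genotypes. It had 1.80, 2.38, 2.18, 2.31 and 1.86 RPKM in WT CSDS libraries, against 2.48, 3.28, 2.83, 2.64 and 3.14 RPKM in WT controls. Its levels with the knockout label were 1.88, 1.93, 2.51, 2.33 and 2.79 RPKM after CSDS, against 3.19, 2.96, 3.20, 3.24 and 3.70 RPKM in controls. There was no overlap in either genotype. The log2 fold change was -0.37 (SE 0.0853, adjusted p = 0.0121) in WT and -0.44 (SE 0.0914, adjusted p = 0.0116) with the knockout label, and both calls were kept without any 1 library. Its annotated exons overlap those of the linker histone gene Hist1h1e, so some of its reads could belong to that gene.

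Hist1h2bk, Hist1h2bl and Hist1h2bp were the other H2B genes called lower in both genotypes, falling by 0.33 to 0.37 on the log2 scale in WT and by 0.41 to 0.48 with the knockout label. Hist1h2ba and Hist1h2bj had the furthest falls of the class in WT, 0.53 each, and were not called with the knockout label, at -0.40 (adjusted p = 0.105) and -0.42 (adjusted p = 0.0659). Hist1h2bb, Hist1h2bf, Hist1h2bn, Hist1h2bq and Hist1h2br were also called in WT alone, at -0.26 to -0.38, against -0.31 to -0.45 with the knockout label. Hist2h2be averaged 3.07 ± 0.147 RPKM in CSDS and 3.77 ± 0.284 RPKM in control libraries labelled knockout (-0.26, adjusted p = 0.00971, no overlap) and 2.75 ± 0.498 RPKM in WT CSDS and 3.41 ± 0.144 RPKM in WT control libraries (-0.28, adjusted p = 0.0570). Hist1h2bg was called in neither, at -0.25 (adjusted p = 0.0665) in WT and -0.33 (adjusted p = 0.108) with the knockout label. Most H2B calls rested on the full set of libraries: 2 of the 12 in WT and 2 of the 6 with the knockout label were kept whichever single library was left out.

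Hist3h2ba, an H2B gene of the Hist3 cluster (chromosome 11, 58948920 to 58949533, plus strand), was the exception of its class. It had 14.1, 18.2, 17.9, 18.4 and 13.2 RPKM in WT CSDS libraries, against 15.3, 15.8, 14.9, 14.5 and 14.3 RPKM in WT controls. Libraries labelled knockout had 15.7, 14.6, 16.4, 17.3 and 18.6 RPKM after CSDS, against 14.8, 15.1, 14.9, 14.1 and 15.8 RPKM in controls. In WT, 3 CSDS libraries lay above all controls and 2 below them. Its fitted log2 fold change was 0.11 (SE 0.0905, adjusted p = 0.397) in WT and 0.13 (SE 0.0582, adjusted p = 0.148) with the knockout label.

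Its neighbour Hist3h2a, an H2A gene (chromosome 11, 58954685 to 58956830, plus strand), was lower after CSDS. It had 13.6, 17.4, 15.3, 17.2 and 13.4 RPKM in WT CSDS libraries, against 17.9, 19.3, 17.7, 18.3 and 18.8 RPKM in WT controls. In libraries labelled knockout it had 15.4, 14.7, 14.6, 15.1 and 16.05 RPKM after CSDS, against 19.9, 20.97, 18.9, 19.0 and 21.7 RPKM in controls. The groups were apart in both genotypes. On the log2 scale the change was -0.26 (SE 0.0727, adjusted p = 0.0290) in WT, lost without control 7, 9 or 10 or CSDS 1, 3 or 5 (adjusted p up to 0.0655). With the knockout label it was -0.39 (SE 0.0434, adjusted p = 0.000848), kept without any 1 library. Its exon overlaps annotated exons of Trim17 and Gm44313.

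Of the other H2A genes, Hist2h2aa1 and Hist2h2aa2 have no window of their own and are 1 measurement in effect. Hist2h2aa1 averaged 17.0 ± 3.73 RPKM in WT CSDS and 18.9 ± 2.95 RPKM in WT control libraries (-0.16, adjusted p = 0.455) and 16.1 ± 3.35 RPKM in CSDS and 21.8 ± 4.13 RPKM in control libraries labelled knockout (-0.44, adjusted p = 0.0821). Hist1h2al, annotated as a processed pseudogene, averaged 14.9 ± 1.14 RPKM in WT CSDS and 17.1 ± 4.39 RPKM in WT control libraries (-0.15, adjusted p = 0.505). It averaged 11.6 ± 1.94 RPKM in CSDS and 15.8 ± 2.35 RPKM in control libraries labelled knockout (-0.43, adjusted p = 0.0389), a call lost without control 6, 8 or 10 or CSDS 1, 2 or 4 (adjusted p up to 0.0886). The 14 H2A genes too low to test all lie in the Hist1 cluster. Their summed level was 2.11 ± 0.710 RPKM in WT CSDS and 3.08 ± 1.11 RPKM in WT control libraries and 1.65 ± 0.536 RPKM in CSDS and 3.62 ± 1.38 RPKM in control libraries labelled knockout, and the groups overlapped in both genotypes.

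H1 binds the DNA between nucleosomes. Hist1h1c (chromosome 13, 23738808 to 23740367, plus strand) had 9.69, 11.0, 11.4, 12.5 and 9.71 RPKM in WT CSDS libraries, against 6.13, 8.64, 11.1, 7.66 and 11.9 RPKM in WT controls. Under the knockout label it had 6.95, 7.15, 11.1, 10.5 and 11.7 RPKM after CSDS, against 10.9, 10.4, 13.9, 12.2 and 14.5 RPKM in controls. The groups overlapped in both genotypes. The log2 fold change was 0.28 (SE 0.157, adjusted p = 0.228) in WT and -0.39 (SE 0.156, adjusted p = 0.119) with the knockout label. Hist1h1e was at -0.02 (adjusted p = 0.946) in WT and -0.47 (adjusted p = 0.0574) with the knockout label.

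Whether the response to CSDS differed between genotypes was tested as an interaction over the 20 libraries. None of the 38 genes was called by limma, where 0.148% of 18263 genes were called. At an unadjusted p under 0.05 there were 2 of the 38, against 11.5% of all genes. Those 2 were Hist1h1c, with a difference of -0.67 (knockout label minus WT, SE 0.235, adjusted p = 0.261), and Hist2h3c1, with a difference of -0.34 (adjusted p = 0.398). The 12 H4 genes ranged from -0.25 to 0.27 with a median of 0.15.

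The libraries labelled knockout were also set against WT within each condition. The 2 tables were deposited separately, and whether they were normalized together is not given in the sources used here. After CSDS limma called 0 of 38 histone cluster genes, with 2 at an unadjusted p under 0.05, where 1.91% of all genes were called and 18.1% had such a p. In controls it called 0 of 40, with 5 at an unadjusted p under 0.05, where 1.14% of all genes were called and 15.3% had such a p. Hist1h1c averaged 12.4 ± 1.81 RPKM in controls labelled knockout and 9.08 ± 2.40 RPKM in WT controls, with a log2 fold change of 0.45 (SE 0.166, adjusted p = 0.225).

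Reads of 75 bases cannot always be placed among genes this alike, and 56 of the 61 shared at least 1 such window with another gene. Genes that share most windows, such as Hist1h2bq and Hist1h2br with 3.92% and 12.4% found in no other gene, are not separate measurements. Counts of genes called are therefore not counts of independent results. Of the tested genes, 10 had at least 75% of windows found in no other gene. The test called 6 of these lower in WT, with a median log2 fold change of -0.36, and 6 with the knockout label, with a median of -0.40. The 6 H4 genes among them were Hist1h4c, Hist1h4d, Hist1h4f, Hist1h4i, Hist1h4j and Hist2h4, of which 5 were called lower in WT (median -0.54) and 4 with the knockout label (median -0.40). The 6 H4 genes with fewer such windows were all called lower in both genotypes, with medians of -0.70 in WT and -0.55 with the knockout label. The H4 genes called lower thus included genes with many and with few such windows. In WT the smallest falls of the class were in the tested genes with the most, Hist2h4 at 100% (-0.15) and Hist1h4d at 96.3% (-0.35). With the knockout label these were at -0.40 and -0.17. Windows were searched in annotated transcripts alone, and the part of shared reads in the H4 values was not tested.

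**Figure D4:**
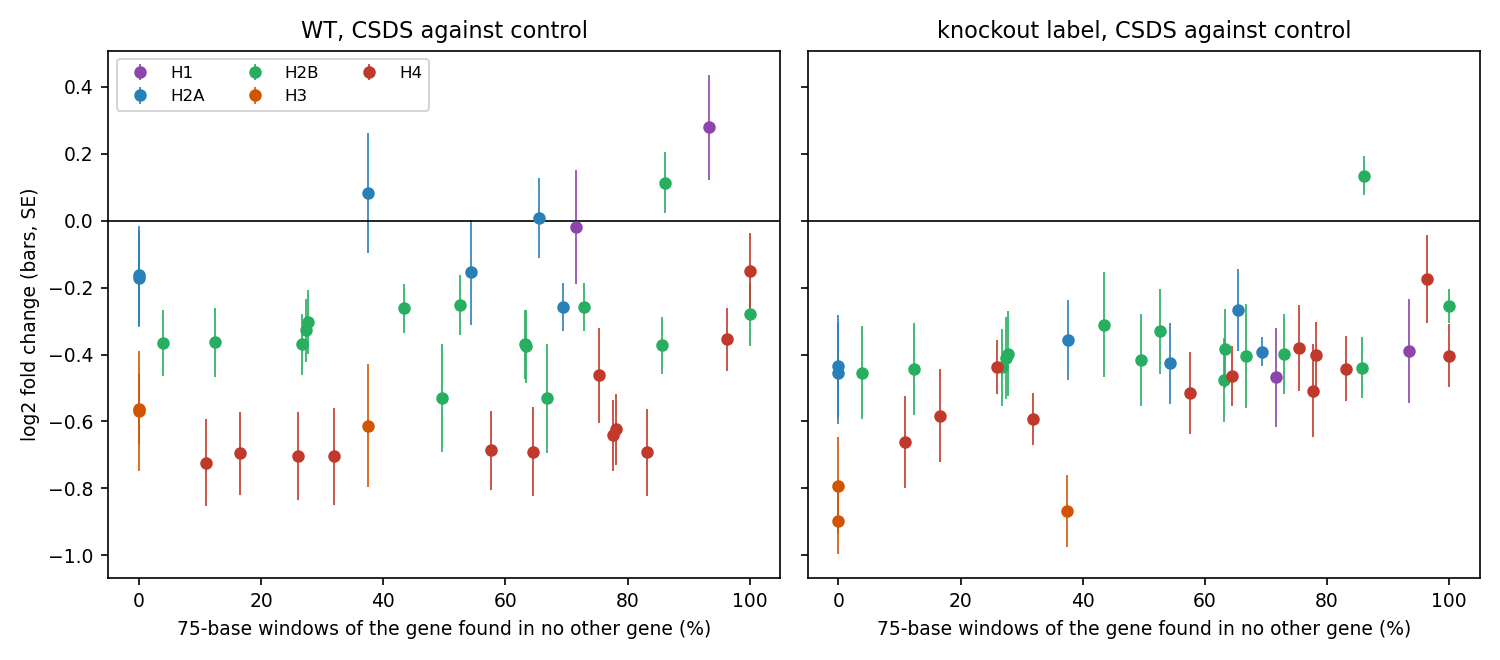
Each point is a tested gene, coloured by class; the x axis is the percent of its 75-base windows found in no other annotated gene, and the y axis the log2 fold change of RPKM + 0.5, CSDS over control, with its SE. H4 genes lie at 11.0% to 100% on the x axis, and in WT the H4 genes at 75% and over range from -0.69 to -0.15.

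The genes were also grouped by what their annotated transcripts hold. Genes whose stem-loop had the stem GGCCC, all H4, had 7 of 8 called lower in WT (median -0.66) and 6 of 8 with the knockout label (median -0.48). Genes whose stem-loop had the stem GGCTC had 9 of 16 called lower in WT (median -0.26) and 6 of 16 with the knockout label (median -0.41). The 14 with no match had 11 and 9 called lower in the same order of genotypes, with medians of -0.37 and -0.43. Some of these have short annotated transcripts, such as Hist1h4k with 312 bases and Hist1h2bl with 381. The lack of a match therefore does not show that a gene lacks the stem-loop. A poly(A) signal spelled AATAAA was present in an annotated transcript of 20 of the 61 genes and of 53.2% of all annotated genes. Of the 13 tested genes with it, 9 were called lower in WT (median -0.36) and 9 with the knockout label (median -0.40). Of the 25 without it, 18 were called lower in WT (median -0.38) and 12 with the knockout label (median -0.44). By cluster, those called lower were 23 of 27 Hist1 genes in WT and 15 with the knockout label, 3 of 9 Hist2 genes in WT and 5 with the knockout label, and 1 of 2 Hist3 genes in each.

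Promoters were set side by side by class, and for Hist3h2a and Hist3h2ba, neighbours of which the first was called lower and the second was not called. RefSeq entries (GRCm38.p6) were found for 54 genes with 55 promoters, and the 250 bases before each start were searched on both strands for CCAAT and TATAAA, which can overlap. CCAAT was present in 80.0% of the 55, against 33.8% of 32851 promoters in the table, and in 25.0% of the H4 promoters. It was present in every H1, H2A and H2B promoter and in 66.7% of H3 promoters. TATAAA was present in 47.3% of the 55, against 12.4% of all, and in 6 of the 12 H4 promoters. A match is a run of letters and not a shown binding site. The 4 sequences below are those of the H4 gene of highest level, the H3 gene furthest apart between groups, and the neighbours on chromosome 11; they run 5′ to 3′ on the strand of the gene, with matches on either strand in capitals.
Hist1h4k: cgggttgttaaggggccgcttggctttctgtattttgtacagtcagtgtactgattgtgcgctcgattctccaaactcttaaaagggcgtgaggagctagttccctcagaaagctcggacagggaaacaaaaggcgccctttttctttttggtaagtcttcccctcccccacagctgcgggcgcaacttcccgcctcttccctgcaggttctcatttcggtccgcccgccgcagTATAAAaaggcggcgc
Hist2h3c1: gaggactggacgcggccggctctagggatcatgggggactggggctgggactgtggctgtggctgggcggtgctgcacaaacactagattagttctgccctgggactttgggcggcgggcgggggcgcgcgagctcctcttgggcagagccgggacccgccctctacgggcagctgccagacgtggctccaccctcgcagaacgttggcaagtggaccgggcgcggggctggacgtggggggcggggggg
Hist3h2a: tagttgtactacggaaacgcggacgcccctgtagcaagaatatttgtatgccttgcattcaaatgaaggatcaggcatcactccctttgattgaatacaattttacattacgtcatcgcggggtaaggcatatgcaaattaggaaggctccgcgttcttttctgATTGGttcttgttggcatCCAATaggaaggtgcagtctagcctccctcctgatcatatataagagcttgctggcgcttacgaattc
Hist3h2ba: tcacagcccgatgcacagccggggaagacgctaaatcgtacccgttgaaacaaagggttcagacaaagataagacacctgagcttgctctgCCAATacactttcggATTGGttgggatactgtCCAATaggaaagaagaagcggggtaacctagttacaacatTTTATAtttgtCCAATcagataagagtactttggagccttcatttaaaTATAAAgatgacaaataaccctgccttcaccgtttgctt
The first is at chr13:21750554-21750803 on the minus strand, the second at chr3:96246435-96246684, the third at chr11:58954435-58954684 and the fourth at chr11:58948661-58948910, all on the plus strand. Hist1h4k had 0 CCAAT and 1 TATAAA and Hist2h3c1 had neither. Hist3h2a had 2 CCAAT and no TATAAA, and Hist3h2ba had 4 CCAAT and 2 TATAAA. Exact strings alone were counted, so the run TATATAA near the end of the Hist3h2a sequence was not.

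The replacement histone genes, which make histone outside of DNA replication from ordinary polyadenylated mRNAs, moved less in the median than the cluster genes. Of 12 tested, 1 fell and 2 rose in WT, and 3 fell and 0 rose with the knockout label, with medians of -0.04 and -0.10. Over all genes, 12.5% were called lower and 9.88% higher in WT, and 8.88% lower and 6.17% higher with the knockout label. The counts of this and each later list are to be read beside these shares. H2afz, which encodes H2A.Z, averaged 48.1 ± 1.83 RPKM in WT CSDS and 52.9 ± 2.18 RPKM in WT control libraries (-0.14, adjusted p = 0.0193) and 50.7 ± 1.09 RPKM in CSDS and 57.5 ± 1.70 RPKM in control libraries labelled knockout (-0.18, adjusted p = 0.00295). H3f3b, which encodes H3.3, averaged 48.3 ± 1.38 RPKM in WT CSDS and 45.8 ± 0.677 RPKM in WT control libraries (0.08, adjusted p = 0.0437) and 49.3 ± 2.13 RPKM in CSDS and 49.9 ± 1.26 RPKM in control libraries labelled knockout (-0.02, adjusted p = 0.778). H2afy2, a macroH2A gene, rose by 0.13 in WT (adjusted p = 0.0482). In libraries labelled knockout, H2afj fell by 0.29 (adjusted p = 0.0465) and the linker histone gene H1f0 by 0.13 (adjusted p = 0.0246). The calls of H3f3b, H2afy2 and H2afj were each lost in 8 of the 10 fits that left out 1 library, with adjusted p of up to 0.0925, 0.105 and 0.103 in that order of genes.

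Among factors that transcribe, cut, bind or degrade histone mRNA, 4 of 22 tested fell and 4 rose in WT, and 3 fell and 3 rose with the knockout label, with a median of 0.02 in both. Slbp averaged 3.92 ± 0.229 RPKM in WT CSDS and 3.76 ± 0.1503 RPKM in WT control libraries (0.05, adjusted p = 0.425) and 4.14 ± 0.114 RPKM in CSDS and 4.07 ± 0.172 RPKM in control libraries labelled knockout (0.02, adjusted p = 0.749). Npat, the factor that activates histone gene transcription, was at -0.02 (adjusted p = 0.728) in WT and 0.07 (adjusted p = 0.269) with the knockout label. Cpsf4, of the complex that recognises poly(A) signals, rose by 0.32 in WT (adjusted p = 0.00322) and by 0.25 with the knockout label (adjusted p = 0.00450). Cpsf3, the nuclease that cuts the 3′ ends of histone and of polyadenylated mRNAs, rose by 0.18 in WT and 0.15 with the knockout label. Dis3l2, an exonuclease, rose by 0.14 and 0.20 in that order, and Srrt, which joins the cap-binding complex to 3′ processing, fell by 0.24 in WT and 0.10 with the knockout label. These calls of Cpsf4, Cpsf3, Dis3l2 and Srrt were kept without any 1 library in both genotypes.

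Among histone chaperones, which carry histones to and from DNA, 7 of 22 fell and 1 rose in WT, and 4 fell and 0 rose with the knockout label, with medians of -0.03 and -0.02. The share of all genes called lower was 12.5% in WT and 8.88% with the knockout label. Nasp, a carrier of H3 and H4, fell by 0.19 in WT (adjusted p = 0.00698). Spty2d1 fell by 0.25 in WT (adjusted p = 0.00316) and by 0.18 with the knockout label (adjusted p = 0.0168). Nap1l1, a carrier of H2A and H2B, fell by 0.13 in WT (adjusted p = 0.00986) and by 0.10 with the knockout label (adjusted p = 0.0199, lost without CSDS 4, adjusted p = 0.0501). Nap1l5 fell by 0.19 in WT, and Nap1l3 and Asf1a fell by 0.15 each with the knockout label. The Asf1a call was lost in 8 of the 10 fits that left out 1 library (adjusted p up to 0.0755).

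Replication-dependent histone genes are transcribed chiefly in dividing cells, so markers of proliferation were read beside them. Of 17 tested in WT, 1 fell and 2 rose: Pcna, the sliding clamp of DNA polymerase, fell by 0.13 (adjusted p = 0.0297), and the replicative helicase genes Mcm3 and Mcm6 rose by 0.22 (adjusted p = 0.0422) and 0.18 (adjusted p = 0.0470). Those 3 calls were each lost in 5 or 6 of the 10 fits that left out 1 library, with adjusted p of up to 0.104. Of 18 tested with the knockout label, only Ccne1, the G1 cyclin, rose, by 0.19 (adjusted p = 0.0123). Mki67, a marker of cycling cells, was tested with the knockout label, at 0.550 ± 0.0835 RPKM in CSDS and 0.493 ± 0.0416 RPKM in control libraries (0.08, adjusted p = 0.516), and Top2a was too low to test. The summed level of the 32 proliferation genes was 49.98 ± 1.36 RPKM in WT CSDS and 49.6 ± 0.846 RPKM in WT control libraries and 52.6 ± 2.02 RPKM in CSDS and 52.0 ± 1.18 RPKM in control libraries labelled knockout, with overlap in both. Of 12 genes of new neurons, Sox4 fell by 0.34 in WT (adjusted p = 0.0237, lost without control 7, control 8 or CSDS 5, adjusted p up to 0.0550). In libraries labelled knockout, Sox4 fell by 0.38 (adjusted p = 0.00393), and Igfbpl1 rose by 0.35 (adjusted p = 0.0364), a call lost in 8 of 10 such fits (adjusted p up to 0.0890). The medians of these lists lay between -0.03 and 0.03.

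Structural RNAs without a poly(A) tail were also lower after CSDS than in controls. This list of 7, with RNAs such as Rn7sk, Rmrp and the 5.8S ribosomal RNA gene n-R5-8s1, was drawn up after values of these data had been seen. Its summed level was 85.8, 62.8, 62.6, 52.9 and 60.5 RPKM in WT CSDS libraries, against 245, 188, 94.4, 198 and 301 RPKM in WT controls. Under the knockout label it was 68.2, 55.1, 80.7, 75.8 and 84.8 RPKM after CSDS, against 563, 88.0, 209, 334 and 264 RPKM in controls. CSDS libraries lay below controls in both genotypes, by a narrow gap from WT control 8 and from control 7 labelled knockout. All 7 were called lower in WT and 4 with the knockout label. Rn7s1, Rn7s2 and Rn7s6 had nearly the same log2 fold change in WT, -1.15, -1.14 and -1.13, and whether they are separate measurements was not tested. With the knockout label the calls of Rmrp and Rnu1a1 were lost in 9 and 7 of the 10 fits that left out 1 library. Adjusted p reached 0.107 and 0.061 in that order. Control 7 labelled knockout, with 88.0 RPKM of structural RNA, had an H4 sum of 31.0 RPKM, and the library labelled knockout 10B, with 56.6 RPKM, had an H4 sum of 34.1 RPKM, both within the control range of H4. WT 9B had 40.1 RPKM of structural RNA and an H4 sum of 22.1 RPKM, below the control range of WT. The knockout-labelled 11 had 206 RPKM of structural RNA and an H4 sum of 31.1 RPKM, within the control range of its label. The part that retention of RNA without a poly(A) tail plays in the histone values was not tested.

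**Figure D5:**
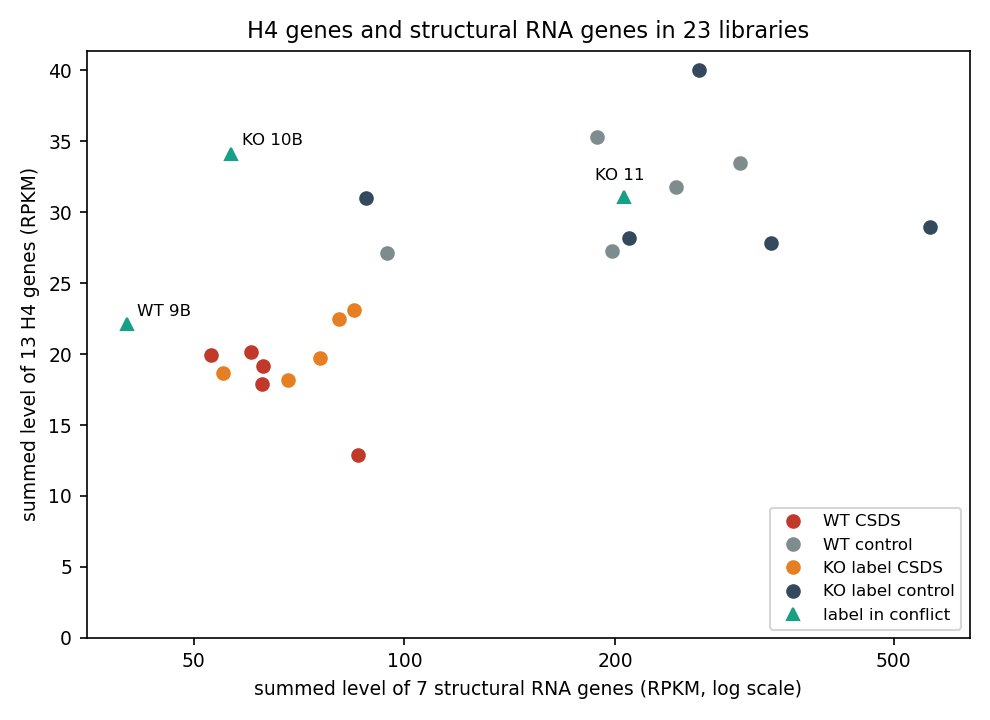
Each point is 1 of the 23 libraries; the x axis is the summed RPKM of 7 structural RNA genes on a log scale and the y axis the summed RPKM of the 13 H4 genes, coloured by group, with triangles for the 3 libraries whose labels conflict. Controls lie upper right and CSDS libraries lower left. Control 7 labelled knockout lies at 88.0 and 31.0 RPKM. Of the libraries in conflict, 10B lies at 56.6 and 34.1 RPKM, WT 9B at 40.1 and 22.1 RPKM, and 11 at 206 and 31.1 RPKM.

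Markers of red blood cells, which carry RNA of their own in blood left in the tissue, moved with CSDS in WT. Their sum over 7 genes was 559 to 2808 RPKM in WT CSDS libraries against 206 to 297 RPKM in WT controls, and 5 of 5 tested were called higher, led by Hbb-bs at 1.82 (adjusted p = 0.00857). With the knockout label the sums were 178 to 356 RPKM after CSDS against 260 to 377 RPKM in controls, and 0 of 5 were called by limma, with 2 lower at an unadjusted p under 0.05. The part of blood in the WT values was not tested. Of 10 microglia genes 3 were called higher in WT and 1 lower with the knockout label. Of 8 oligodendrocyte precursor genes 1 was called lower and 3 higher in WT, and 1 higher with the knockout label. Of the 9 genes looked at for the tissue none was called by limma in WT, with 1 at an unadjusted p under 0.05, and Gad1 alone, higher, with the knockout label.

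The authors' own comparison is also in the deposited tables, with its sign as control over CSDS. The control means in the authors' deposited table are means over 6 WT and 7 knockout-labelled libraries, those with conflicting labels included, so its groups differ from those above. Values for 37 of the 61 genes are in the authors' deposited table, and at a false discovery rate under 0.05 it had 20 lower after CSDS in WT and 26 in the libraries labelled knockout, with 0 higher in either. Of all 17840 genes with a value in the authors' deposited table, 11.8% were lower and 9.15% higher in WT, and 8.67% lower and 8.45% higher with the knockout label. Of the 10 H4 genes in the authors' deposited table, 9 were lower after CSDS in WT and 10 with the knockout label.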

How the data were processed

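Poly(A)-selected RNA of 23 hippocampal libraries was analysed from RPKM values that the authors deposited in 2 tables. The aligner was STAR and the genome build mm10, per the submitters' processing notes. Counting tool, annotation, strand use and the handling of reads with several matches: not given in the sources used here. The tables also hold the authors' deposited mean RPKM values, log2 fold changes, log2 CPM means, likelihood ratio scores and p-values, made with edgeR per the file headers. Each comparison was fitted to all genes with limma 3.58.1 (R 4.3.3) on log2(RPKM + 0.5), with a mean of at least 0.5 RPKM and an adjusted p of 0.05, which understates the change of low genes. Depth and the reads behind a value were estimated from single-exon genes, whose RPKM values step by 1 read, and are approximate. The fit was tested on simulated data. Transcripts came from GENCODE M21 and promoters from RefSeq. The members and lists were chosen with earlier results of these data known. Genes named with values were the 3 of highest level in each class, every gene called, and of each list up to 4 of smallest p among those called, plus Slbp, Npat, H3f3b, H2afz, Mki67 and Top2a. Named beyond that rule after their values were seen were Hist1h2ac, Hist2h4 in WT, Hist4h4 and the untested H3 genes.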

Additional observations from a re-analysis of the deposited data

Results flagged for a closer look

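A library was singled out where its gap to the nearest of the other 4 in its group took up more of the group's range than Dixon's 95% limit allows. Chance flags about 1 in 20 groups, and 9 of 168 groups of 5 were flagged here. In WT CSDS library 1 the level was low for Hist1h4k at 2.04 RPKM (others 3.28 to 3.73), Hist1h4h at 1.39 RPKM (others 2.19 to 2.46) and Hist1h4a at 0.947 RPKM (others 1.65 to 1.86). In WT CSDS library 2 Hist1h2al was low at 12.9 RPKM (others 15.1 to 15.8). In WT control 6 Hist1h2bf was low at 8.75 RPKM (others 9.48 to 9.71). In WT control 7 Hist1h2bk was high at 9.09 RPKM (others 7.62 to 7.88) and Hist1h2bn at 10.9 RPKM (others 8.83 to 9.39). In control 10 labelled knockout Hist1h2bf was high at 13.2 RPKM (others 9.57 to 10.0) and the summed level of the 13 H4 genes was 40.0 RPKM (others 27.8 to 31.0). The calls of Hist1h4k, Hist1h4h and Hist1h4a in WT were kept without CSDS 1, and all 3 are H4 genes that share 75-base windows.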

How the results depend on the processing

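No named gene changed direction under any alternative where it was called. Pseudocounts of 0.1 and 1 moved 1 of 119 named results across the threshold, 0 and 1 in that order. Median-of-ratios scaling moved 4 and quantile normalization 10 of 119. With no filter on low values 26 of 119 weakened, as did 17 without both control 10 libraries. Taking the conflicting libraries as control weakened 13 and strengthened 5. Fitting all 4 groups in 1 fit weakened 6 and strengthened 6. Taking the conflicting libraries as CSDS weakened 65 of 119; all genes called fell to 1240 in WT, against 4093 without them, and to 143 with the knockout label, against 2747, and the cause was not tested. H4 counts in WT stayed at 9 to 11 under every alternative.

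Genes called lower in WT were 14 (H3 1, H2B 4, H2A 0) with the conflicting libraries as CSDS, 16 (H3 1, H2B 5, H2A 0) without both control 10 libraries, and 4 for H2B with no filter on low values. With the knockout label 0 genes were called lower with the conflicting libraries as CSDS, 0 in each of H4, H3, H2B and H2A. There H2B calls were 2 with no filter and 10 with all 4 groups in 1 fit, and H2A calls were 1 with the conflicting libraries as control and 1 without both control 10 libraries. With the conflicting libraries as control, 2 genes were called higher in knockout-labelled against WT controls.

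Leaving out 1 library at a time gave 13 to 25 genes called lower in WT (H4 9 to 11, H3 1 to 3, H2B 2 to 12, H2A 0 to 1) and 13 to 27 with the knockout label (H4 7 to 11, H3 3, H2B 2 to 11, H2A 1 to 3). Counts called higher, and in either direction in the genotype comparisons and the interaction, stayed at 0.

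The related lists were put through the same alternatives after the data had been seen. With the conflicting libraries as CSDS, calls in WT were 1 for replacement histones, 2 for processing factors, 3 for chaperones, and 0 for proliferation, new neurons and red blood cells; with the knockout label they were 1 for processing factors and 0 for replacement histones, chaperones, proliferation, new neurons and structural RNAs. With them as control, structural RNA calls were 3 in WT and 2 with the knockout label. Without both control 10 libraries there were 1 replacement histone in WT and 8 chaperones with the knockout label. With no filter there were 1 replacement histone and 1 proliferation gene in WT, and 1 new neuron gene and 2 structural RNAs with the knockout label. There was 1 proliferation gene in WT with quantile normalization, 1 new neuron gene with the knockout label at a mean of at least 1 RPKM, and 1 new neuron gene and 7 structural RNAs with all 4 groups in 1 fit. Leaving out 1 library gave, in WT, 1 to 3 replacement histones, 7 to 9 processing factors, 5 to 9 chaperones, 0 to 4 proliferation, 0 to 2 new neuron, 5 to 7 structural and 4 to 5 red blood cell genes. With the knockout label it gave 1 to 4, 5 to 7, 2 to 8, 1, 1 to 3, 2 to 7 and 0 to 4.

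With the number in the title as a replicate block, 0 histone cluster genes were called in both genotype comparisons, as without it, and all genes called went to 45, against 209, in controls and to 162, against 349, after CSDS. Same-numbered libraries had r of -0.107 to 0.371 in controls and -0.005 to 0.097 after CSDS, and 3 of 5 and 2 of 5 numbers were best matched by their own. The highest r, 0.371, was that of the control libraries numbered 10, which stood apart in sex-linked genes. These values do not settle whether the numbers pair the libraries.

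Untested genes rested on 0 to 91.3 estimated reads a library by their medians, and on 2.81 at the middle gene, where few reads limit what can be detected.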
